A study of Homo sapiens with 15 samples.

Results

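The NOTCH pathway was followed through 10 genes in HCC1954 cells, an established line from a human breast tumour with amplified HER2: the receptors NOTCH1, NOTCH2 and NOTCH3, the ligands JAG1, JAG2 and DLL1, the receptor-modifying glycosyltransferase LFNG, the nuclear coactivator MAML2, and the targets HES1 and HEY1. They were chosen by name, with earlier results of these data known, and all 10 were found among the 19843 distinct gene names of the deposited tables. The 15 RNA-seq libraries came from brain-tropic latent or residual cells (Lat, 4 libraries), brain-tropic metachronous metastatic cells (M-BM, 4), brain-tropic synchronous metastatic cells (S-BM, 4) and the parental line (Pa, 3). All groups are labelled HER2+ and had RNA extracted after culture overnight, so no level below was measured inside the brain. Nothing in the labels tells whether a group's libraries came from separate cultures, animals or clones, and p-values may therefore reflect no more than technical spread.

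NOTCH signalling passes between touching cells. A ligand of the Jagged or Delta family on one cell binds a NOTCH receptor on its neighbour, the protease ADAM10 and then the γ-secretase complex cut the receptor, and the freed intracellular part joins RBPJ and a Mastermind protein in the nucleus to switch on HES and HEY repressor genes. In the mammary gland the pathway takes part in the choice of luminal fate, and JAG1 has been linked with the spread of breast cancer. RNA levels report how much of each part is made, not how often a receptor is cut.

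Upstream sequences from the RefSeq table (GRCh38.p14) were searched for 8 of the 10 members. They gave 9 windows in all, since LFNG has a pair of annotated start sites. The remaining members were not searched, so nothing is known here of the motif in their windows. Each window covers 250 bases before and 50 bases after a start site. The windows of HES1, a target that RBPJ is known to bind, of LFNG, and of NOTCH3, the receptor with the largest change, are shown. They let a reader see where TGGGAA, core letters of the RBPJ motif, does and does not lie. The letters searched were TGGGAA on either strand, which also lie inside the longer form GTGGGAA, and capitals mark each match. Other forms of the motif were not searched or marked.
HES1, chr3:194135898-194136197, plus strand: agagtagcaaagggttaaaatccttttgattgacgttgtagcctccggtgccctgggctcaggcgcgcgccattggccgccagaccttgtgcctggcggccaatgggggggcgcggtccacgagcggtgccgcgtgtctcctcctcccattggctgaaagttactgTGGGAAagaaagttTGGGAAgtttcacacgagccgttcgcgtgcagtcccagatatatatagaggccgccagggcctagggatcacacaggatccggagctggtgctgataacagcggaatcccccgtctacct
LFNG, upstream start, chr7:2512279-2512578, plus strand: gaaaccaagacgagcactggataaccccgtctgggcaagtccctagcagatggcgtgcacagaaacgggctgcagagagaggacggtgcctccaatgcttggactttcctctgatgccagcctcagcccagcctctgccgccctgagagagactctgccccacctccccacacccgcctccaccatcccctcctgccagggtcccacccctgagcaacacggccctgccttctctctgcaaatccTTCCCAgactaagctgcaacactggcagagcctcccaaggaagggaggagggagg
LFNG, downstream start, chr7:2517613-2517912, plus strand: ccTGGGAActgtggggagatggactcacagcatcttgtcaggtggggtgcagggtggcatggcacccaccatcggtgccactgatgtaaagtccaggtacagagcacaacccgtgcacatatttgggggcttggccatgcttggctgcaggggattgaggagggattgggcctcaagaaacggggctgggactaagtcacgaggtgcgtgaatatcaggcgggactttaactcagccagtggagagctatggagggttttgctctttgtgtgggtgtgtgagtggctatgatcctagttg
NOTCH3, chr19:15200946-15201245, minus strand: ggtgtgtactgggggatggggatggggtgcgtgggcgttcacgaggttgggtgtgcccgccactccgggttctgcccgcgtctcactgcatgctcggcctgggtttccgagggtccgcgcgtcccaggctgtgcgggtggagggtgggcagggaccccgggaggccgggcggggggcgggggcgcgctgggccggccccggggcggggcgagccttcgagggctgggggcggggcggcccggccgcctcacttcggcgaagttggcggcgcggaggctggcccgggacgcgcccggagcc
The HES1 window held 2 matches, which begin at −84 and −70 from the start site, and the first of them is also a match of the longer form. Each LFNG window held 1 match, at −5 on the opposite strand for the upstream start and at −248 for the downstream one. The windows of NOTCH1, NOTCH2, NOTCH3, JAG1, JAG2 and MAML2 held none. Over all 35116 windows of the table, 24.0% held TGGGAA at least once, 3.8% held it 2 or more times, and 6.25% held GTGGGAA. A match is a description of letters and no evidence of binding.

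The limit that a count of 0 allows (3 reads) was 0.136 to 0.225 normalized counts depending on the library's depth, which covers counting error only. All 7 epithelial markers, among them EPCAM and the keratins KRT7, KRT8 and KRT18, were present in every group, but not at an even level. KRT8 averaged 532 in Lat and 568 in M-BM, against 1089 in S-BM and 1891 in Pa. KRT7 averaged 1357 and 1370, against 2022 and 1952. KRT19 did not follow them, at 8.63 in Lat, 12.96 in M-BM and 11.71 in S-BM. Of 24 markers of astrocytes, neurons, oligodendrocytes, leukocytes, endothelium and fibroblasts, 19 were listed, and their summed level was 150 to 191 in Lat, 154 to 208 in M-BM, 164 to 205 in S-BM and 175 to 196 in Pa. Most of that sum was MBP and TUBB3, and CSF1R, COL1A1, CDH5 and PECAM1 passed 10 in at least 1 library, while GFAP, AIF1, MOG, PTPRC and COL1A2 stayed near 0. Some of these markers moved with the comparisons. TUBB3 averaged 30.2 in Lat and 28.7 in M-BM, against 56.75 in S-BM. The endothelial marker CDH5 averaged 4.03 in Lat and 2.67 in M-BM, against 8.91 in S-BM, VWF 0.423 and 0.511 against 3.64, and KDR 0.239 and 0.131 against 0.884. PECAM1, also endothelial, split within S-BM at 10.6, 11.2, 2.25 and 2.21, against 1.5 to 3.6 in Lat and 3.26 to 5.60 in M-BM. In Pa, CDH5 stood at 11.3, 17.85 and 17.0 and TUBB3 at 37.1, 51.1 and 45.2. VWF was at 0.533, 0.503 and 0.824 there, and KDR at 0.266, 0.251 and 0.110. COL1A1 averaged 10.2 in Lat and 8.61 in M-BM, against 4.71 in S-BM, and PDGFRB 0.442 and 0.358 against 0.0291. The part of the epithelial and other markers in the results below was not tested. Some libraries stood apart. S-BM 3 and S-BM 4 had ERBB2, the HER2 gene, at 353 and 367, against 4109 and 4642 in S-BM 1 and S-BM 2. M-BM 4 kept LMAN1 at 26.8, a gene at 0 in the other M-BM and all Lat libraries and between 89.6 and 118 in S-BM. Differences without S-BM 3 and S-BM 4 are also given for NOTCH3, NOTCH1, JAG1, JAG2 and LFNG, and without M-BM 4 for NOTCH3 and MAML2. Those of other genes are given with these libraries only.

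NOTCH3 was the member that differed most between groups by test among the 8 above the filter on low values. Its level in Lat 1 to Lat 4 was 14.0, 13.4, 14.0 and 16.7, in M-BM 1 to M-BM 4 it was 16.4, 25.4, 18.1 and 26.2, and in S-BM 1 to S-BM 4 it was 69.7, 115, 67.0 and 74.1 (normalized counts). In bulk RNA, fewer cells that express a gene and less RNA of it per cell cannot be told apart. The lowest S-BM library held more than the highest Lat or M-BM library, with S-BM 2 high within its group. NOTCH3 fell in Lat against S-BM by 2.38 on the log2(value + 1) scale (SE 0.18, limma adjusted p = 4.32e-07). It fell in M-BM against S-BM by 1.86 (SE 0.18, limma adjusted p = 5.02e-06). Without S-BM 3 and S-BM 4 those differences were −2.55 and −2.04, and without M-BM 4 the M-BM difference was −1.96. The gene lies on chromosome 19, 15159038 to 15200981, on the minus strand (GRCh38, GENCODE 29).

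NOTCH2, the receptor with the highest normalized count in every group, moved less and with little spread. Lat libraries held 260, 269, 289 and 264, M-BM libraries 302, 279, 303 and 324, and S-BM libraries 391, 415, 402 and 382. No Lat or M-BM library reached the S-BM range. NOTCH2 fell by 0.55 in Lat against S-BM (SE 0.08, limma adjusted p = 3.54e-05) and by 0.40 in M-BM against S-BM (SE 0.08, limma adjusted p = 0.000709). NOTCH2NL, a near-identical partial copy on the same chromosome, was listed separately at 35.7 to 67.4 over the 15 libraries, so the split of reads between the pair is uncertain.

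NOTCH1 showed the smallest and least stable change of the receptors. It stood at 41.2, 38.6, 38.4 and 41.8 in Lat, at 46.5, 66.3, 53.7 and 36.6 in M-BM and at 46.5, 51.7, 60.1 and 63.5 in S-BM. Lat lay just below S-BM, whereas M-BM ran from below the lowest S-BM library to above the highest. NOTCH1 fell by 0.45 in Lat against S-BM (SE 0.15, limma adjusted p = 0.0195), and the call was lost when S-BM 3 (−0.41, limma adjusted p = 0.0528) or S-BM 4 (−0.38, adjusted p = 0.0605) was left out, and when both were (−0.29, adjusted p = 0.2). In M-BM against S-BM its difference was −0.15 (95% interval −0.47 to 0.18, limma adjusted p = 0.434), and 0.02 without S-BM 3 and S-BM 4.

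**Figure D1:**
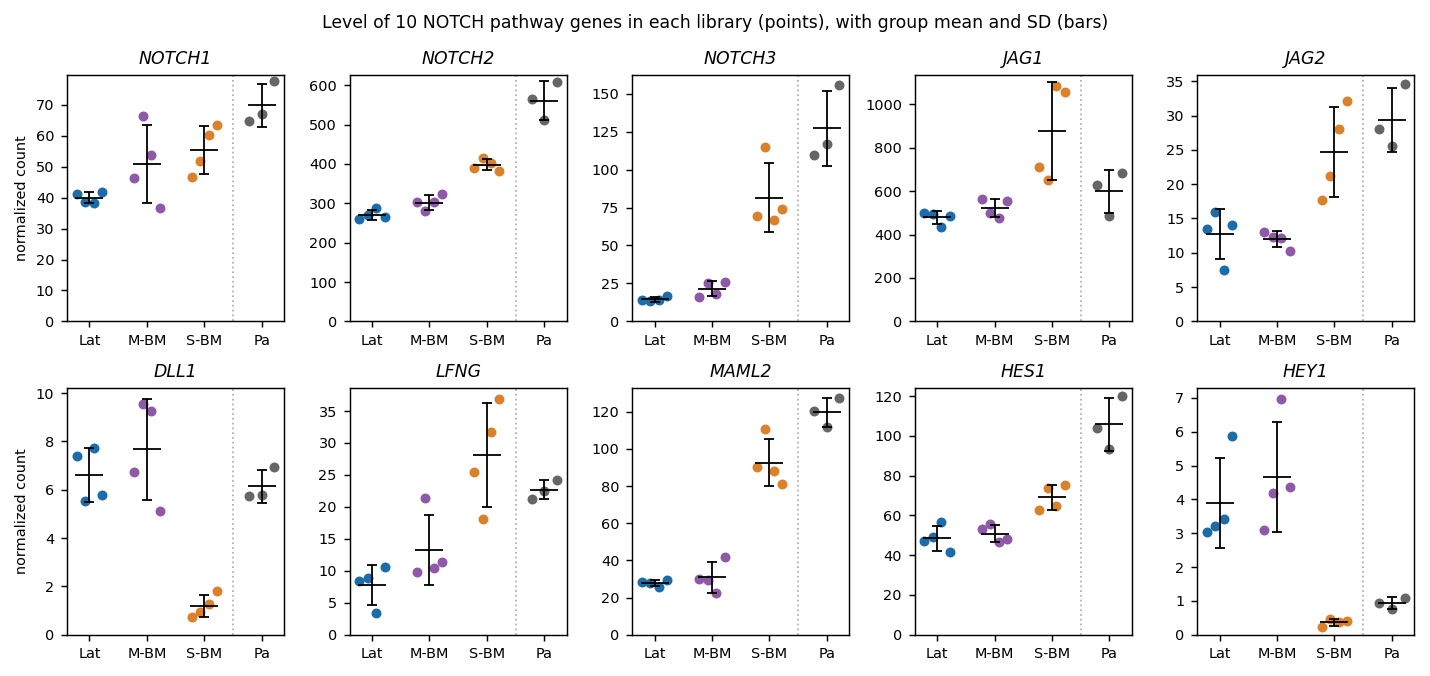
Normalized count (vertical axis, from 0, its own scale in each panel) of the 10 genes in each library (points), by group on the horizontal axis, with the group mean and SD as bars. Pa, right of the dotted line, comes from a separate table. NOTCH3, MAML2 and NOTCH2 lie lower in every Lat and M-BM library than in any S-BM library, while DLL1 and HEY1 lie higher.

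The member ligands split into Jagged genes that were lower and a Delta gene that was higher outside S-BM. JAG1, the main ligand of these cells, stood at 501, 496, 433 and 484 in Lat, at 565, 500, 476 and 552 in M-BM and at 711, 652, 1084 and 1058 in S-BM. All Lat and M-BM libraries lay below all S-BM libraries, and S-BM itself fell into a lower and a higher pair. JAG1 fell by 0.84 in Lat against S-BM (SE 0.15, limma adjusted p = 0.000311) and by 0.71 in M-BM against S-BM (SE 0.15, limma adjusted p = 0.00143). With those higher libraries, S-BM 3 and S-BM 4, left out, these were −0.51 (limma adjusted p = 0.00225) and −0.38 (adjusted p = 0.0141).

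JAG2, the second Jagged ligand, was scarcer and followed JAG1. Its level was 13.5, 15.9, 7.46 and 14.0 in Lat, 13.1, 12.3, 12.2 and 10.3 in M-BM, and 17.7, 21.2, 28.0 and 32.1 in S-BM. The groups did not overlap, although Lat 2 came close to S-BM 1. JAG2 fell by 0.92 in Lat against S-BM (SE 0.22, limma adjusted p = 0.00227) and by 0.96 in M-BM against S-BM (SE 0.22, limma adjusted p = 0.00216). When S-BM 3 and S-BM 4 were dropped the differences were −0.61 (limma adjusted p = 0.0465) and −0.65 (adjusted p = 0.0414). Reads of an overlapping transcript that covers 7.33% of the exonic bases of JAG2 cannot be told apart from its own.

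DLL1, a Delta-family ligand, went the other way at a low level. It stood at 7.40, 5.54, 7.71 and 5.79 in Lat and at 6.75, 9.53, 9.25 and 5.14 in M-BM, against 0.741, 0.961, 1.28 and 1.80 in S-BM, where the recovered reads were 13 to 31 per library. Every Lat and M-BM library was above every S-BM library. Its mean was 5.53 times that of S-BM in Lat and 6.41 times in M-BM. DLL1 was below the filter, so it was fitted with no filter on low values, where it rose by 1.80 in Lat against S-BM (SE 0.22, limma adjusted p = 3.91e-05) and by 1.97 in M-BM against S-BM (SE 0.22, limma adjusted p = 4.36e-05). These log2(value + 1) differences understate the change of so low a gene: edgeR on the recovered reads gave 2.48 and 2.70.

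LFNG, the Fringe enzyme that alters which ligands a NOTCH receptor answers to, had 8.42, 8.80, 3.36 and 10.6 in Lat, 9.80, 21.4, 10.4 and 11.4 in M-BM and 25.5, 18.1, 31.8 and 36.95 in S-BM. Lat lay wholly below S-BM, while M-BM 2 exceeded S-BM 2. LFNG fell by 1.77 in Lat against S-BM (SE 0.31, limma adjusted p = 0.000266) and by 1.05 in M-BM against S-BM (SE 0.31, limma adjusted p = 0.0118). Leaving out S-BM 3 and S-BM 4 ended the M-BM call (−0.72, limma adjusted p = 0.133).

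MAML2, a Mastermind coactivator that binds the receptor's intracellular part on RBPJ, was also lower outside S-BM. It stood at 28.4, 27.7, 25.7 and 29.5 in Lat, at 29.8, 29.3, 22.3 and 42.0 in M-BM and at 90.2, 111, 88.1 and 81.3 in S-BM. The highest library outside S-BM was M-BM 4, and it too lay below every S-BM library. MAML2 fell by 1.69 in Lat against S-BM (SE 0.15, limma adjusted p = 1.23e-06) and by 1.58 in M-BM against S-BM (SE 0.15, limma adjusted p = 5.11e-06), or by 1.74 without M-BM 4. A non-coding RNA on the opposite strand shares 7.72% of the exonic bases of MAML2, and the library kit does not keep strand.

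The targets also split. HES1, a basic helix-loop-helix repressor and the best-known NOTCH target, stood at 46.9, 49.2, 56.6 and 41.4 in Lat, at 53.3, 55.7, 46.7 and 47.9 in M-BM and at 62.7, 73.6, 64.7 and 75.1 in S-BM. Lat and M-BM libraries all lay below S-BM, by a narrow margin. HES1 fell by 0.50 in Lat against S-BM (SE 0.11, limma adjusted p = 0.00114) and by 0.43 in M-BM against S-BM (SE 0.11, limma adjusted p = 0.00421).

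HEY1, a related repressor, was scarce and higher outside S-BM. Its level was 3.03, 3.21, 3.42 and 5.86 in Lat and 3.10, 4.2, 6.96 and 4.38 in M-BM, against 0.228, 0.455, 0.375 and 0.407 in S-BM. Each S-BM library had only 4 to 9 recovered reads, against 58 to 84 in Lat and 63 to 143 in M-BM. The ratio of means to S-BM was 10.6 in Lat and 12.7 in M-BM. HEY1, also below the filter and fitted with no filter on low values, rose by 1.80 in Lat (SE 0.22, limma adjusted p = 3.89e-05) and by 2.01 in M-BM (SE 0.22, limma adjusted p = 3.85e-05), each against S-BM. With edgeR on the recovered reads the differences were 3.38 and 3.66.

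**Figure D2:**
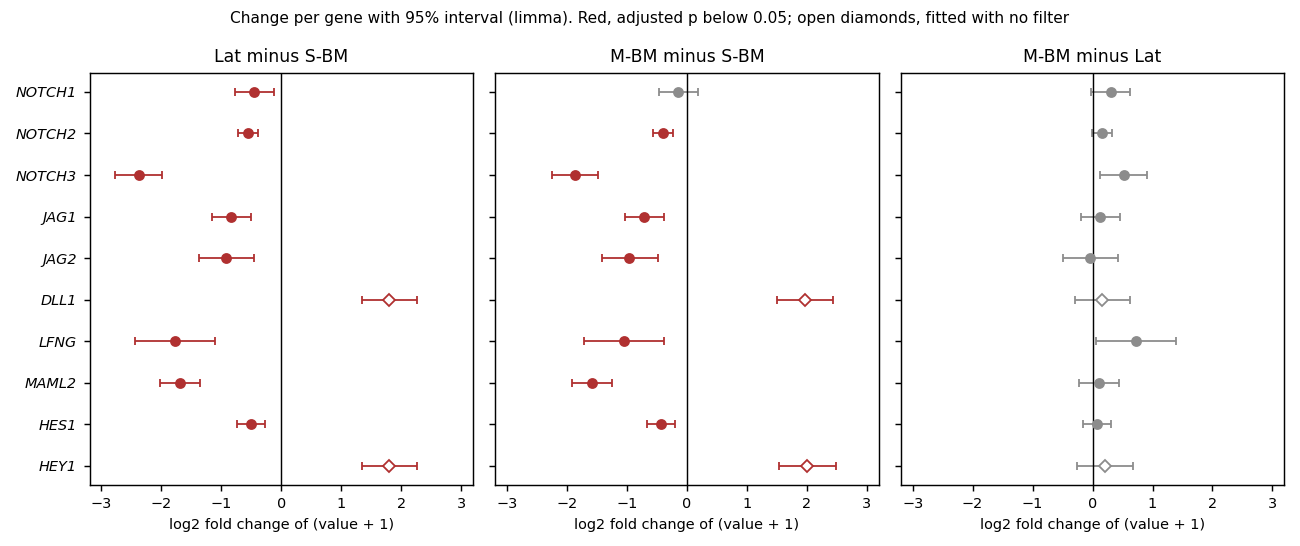
Difference on the log2(value + 1) scale (horizontal axis) of each gene (rows) in the 3 comparisons, with the 95% interval from limma; red marks an adjusted p below 0.05 and open diamonds mark genes fitted with no filter. DLL1 and HEY1 lie right of 0 in both comparisons with S-BM, the other genes lie left of 0, and no gene is red between M-BM and Lat.

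Across the members above the filter, 8 of 8 fell in Lat against S-BM, where 59.7% of 9646 tested genes were called at a limma adjusted p of 0.05 and 29.4% were called lower and 30.2% higher. The groups did not overlap for all 8, against 27.6% of tested genes that were lower without overlap. In M-BM against S-BM, 7 of 8 fell, where 52.7% of tested genes were called and 25.8% called lower and 26.9% higher, and 6 of 8 did not overlap, against 22.8% of tested genes. The median log2 difference of these 8 was −0.88 in Lat and −0.83 in M-BM, beside 0.005 and 0.008 over all tested genes. Both comparisons use the same S-BM libraries, so their directions are not independent. The members were chosen with earlier results of these data known, so these shares describe them and are no test of the pathway. DLL1 and HEY1, fitted among 19462 genes with no filter, were called higher where 20.7% of genes were called higher in Lat and 17.5% in M-BM; their groups did not overlap either, as for 19.3% and 16.7% of genes that were higher.

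M-BM was also set against Lat directly, that is, metachronous metastatic cells against latent or residual ones. None of the 8 members above the filter passed limma's adjusted p, where 0.145% of tested genes did, and 2 had an unadjusted p under 0.05. edgeR and DESeq2 on the recovered reads called 0 as well. NOTCH3 was at 0.52 (95% interval 0.13 to 0.91, limma adjusted p = 0.308) and LFNG at 0.72 (0.05 to 1.39, adjusted p = 0.423), with overlapping libraries in each case. For JAG1 the interval was −0.20 to 0.45, for MAML2 −0.22 to 0.44, for HES1 −0.16 to 0.30 and for JAG2 −0.50 to 0.42 (95% each). DLL1 (−0.30 to 0.63) and HEY1 (−0.26 to 0.67) were not called either, in a fit where 0.123% of genes were.

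Set beside the parental line, the members fell into distinct patterns. Pa levels come from a table normalized on its own and multiplied by 1.0062, so they are compared as levels with no test. NOTCH3 averaged 14.5 ± 1.48 in Lat (SD, n = 4), 21.5 ± 4.99 in M-BM (n = 4), 81.5 ± 22.6 in S-BM (n = 4) and 127 ± 24.6 in Pa (n = 3), with overlap between Lat and M-BM and between S-BM and Pa. In terms of Pa its level was 11.4% in Lat, 16.9% in M-BM and 64.0% in S-BM. MAML2 stood at 23.2% of Pa in Lat, 25.8% in M-BM and 77.3% in S-BM, with every brain-tropic library below the Pa range of 112 to 127. For S-BM the margin was narrow, with 110.8 in S-BM 2 against 111.7 in Pa 2.

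NOTCH2 and HES1 were graded in the same order. NOTCH2 averaged 271 ± 12.7 in Lat, 302 ± 18.1 in M-BM, 398 ± 14.3 in S-BM and 561 ± 48.7 in Pa, so that S-BM, too, was below every Pa library. HES1 averaged 48.5 ± 6.31 in Lat, 50.9 ± 4.32 in M-BM, 69.0 ± 6.24 in S-BM and 106 ± 13.5 in Pa, with Lat and M-BM overlapping and S-BM apart on both sides. NOTCH1 averaged 40.0 ± 1.74 in Lat, 50.8 ± 12.5 in M-BM, 55.5 ± 7.79 in S-BM and 69.8 ± 6.95 in Pa. JAG2 was at 43.3% of Pa in Lat, 40.7% in M-BM and 84.0% in S-BM, so that Lat and M-BM, which overlapped, were in the other order, and S-BM alone of the 3 overlapped Pa.

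JAG1, LFNG, DLL1 and HEY1 had other orders. JAG1 averaged 478 ± 31.4 in Lat, 523 ± 42.4 in M-BM and 876 ± 227 in S-BM, against 598 ± 100 in Pa, and all 3 brain-tropic groups overlapped the Pa range of 487 to 681. LFNG was at 34.4% of Pa in Lat and 124% in S-BM, where the ranges of S-BM and Pa overlapped. DLL1 was at 108% of Pa in Lat and 125% in M-BM but at 19.5% in S-BM, so S-BM was the group that stood apart from the line it came from. HEY1 was at 4.18 times its Pa level in Lat, 5.02 times in M-BM and 39.5% of it in S-BM, and no group overlapped Pa, whose libraries held 12 to 20 reads. Wholly outside the Pa range were 8 of the 10 genes in Lat, 6 in M-BM and 6 in S-BM. Of the 8 with a mean of at least 10, 7 were outside it in Lat, 5 in M-BM and 4 in S-BM, where 72.5%, 67.7% and 43.6% of all genes with such a mean were.

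**Figure D3:**
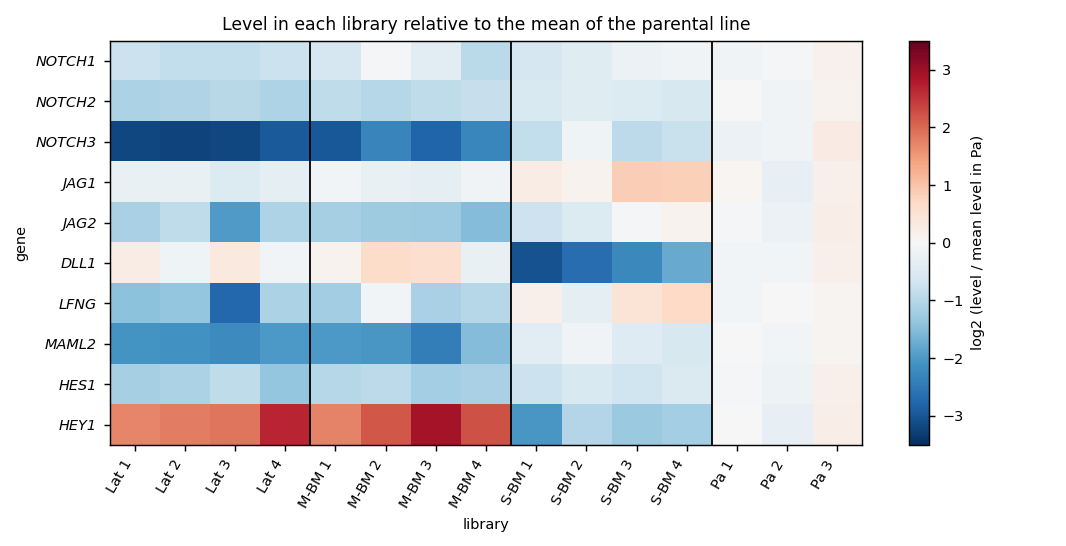
Level of each gene (rows) in each library (columns, grouped as Lat, M-BM, S-BM and Pa) as log2 of its ratio to the mean in Pa; blue is below and red above Pa. NOTCH3 and MAML2 are bluest in Lat and M-BM, DLL1 is blue in S-BM, and HEY1 is red in Lat and M-BM.

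Levels of different genes can be set side by side only per length. Per kilobase of exonic sequence (all GENCODE 29 exons of the gene joined, which is longer than any 1 transcript), JAG1 was the most abundant member in Lat at 51.5, in M-BM at 56.3, in S-BM at 94.2 and in Pa at 64.3 normalized counts per kilobase. Next came HES1, at 23.5 in Lat, 24.7 in M-BM, 33.5 in S-BM and 51.3 in Pa, and then NOTCH2, at 16.1, 18.0, 23.7 and 33.4 in the same order of groups. NOTCH3 per kilobase was 1.54 in Lat and 2.29 in M-BM, under NOTCH1 at 3.85 and 4.89, whereas in S-BM NOTCH3 was at 8.67 and NOTCH1 at 5.34. HEY1 was the lowest in every group, at 1.20 in Lat, 1.44 in M-BM, 0.113 in S-BM and 0.287 in Pa.

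Within S-BM, the libraries low in ERBB2 (S-BM 3 and S-BM 4) held more than S-BM 1 and S-BM 2 of 5 members: NOTCH1, JAG1, JAG2, DLL1 and LFNG. Their mean over that of the other pair was 1.57 for JAG1, 1.55 for JAG2, 1.58 for LFNG, 1.81 for DLL1 and 1.26 for NOTCH1, while MAML2 was lower in both at 0.843 and the other 4 overlapped. Over all tested genes, 28.6% were higher in both of these libraries and 33.0% lower in both, so such a split was common, and it is given without a test.

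The genes whose pattern over the 12 brain-tropic libraries was most like a member's were found by Pearson correlation of log2(value + 1) among 9645 other tested genes, as a description in which group differences carry most of the value. For NOTCH3 they were ERBB3, which encodes the HER3 receptor, the collagen receptor gene DDR1 (r = 0.994 each) and GUCY1A3 (0.99). For HES1 they were the complement protease genes C1S (0.955) and C1R (0.948) and ZNF74 (0.947). For JAG1 they were HIGD2A (0.991), C19orf33 (0.983) and THSD4 (0.979). ERBB3 averaged 40.7 in Lat, 51.8 in M-BM and 104 in S-BM. C1S averaged 4.47, 5.71 and 14.6 in the same order of groups, and C1R 5.48, 8.27 and 16.4. Outside S-BM both thus averaged under the filter value of 10, and a filter that S-BM helps them pass favours such a likeness.

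The rest of the pathway was read from a list of 61 further genes, of which 56 were in the files and 37 passed the filter. In Lat against S-BM 9 rose and 15 fell, which is 64.9% called where 59.7% of all tested genes were. In M-BM against S-BM 9 rose and 13 fell, or 59.5% called where 52.7% of all tested genes were, and the median differences were −0.14 and −0.08. Called genes thus went in both directions, at a share near that of all tested genes. These counts include TLE4 in Lat and HES2 in both comparisons, which reached the filter only through the group where they are high.

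Among the proteases that cut the receptor, ADAM10 fell and ADAM17 did not pass. ADAM10 stood at 184, 203, 154 and 195 in Lat, at 244, 190, 209 and 256 in M-BM and at 334, 424, 343 and 329 in S-BM, with no overlap. It fell by 0.95 in Lat (limma adjusted p = 1.92e-05) and by 0.67 in M-BM (limma adjusted p = 0.000487), each against S-BM. Of the γ-secretase genes, PSEN2, a catalytic subunit, rose (23.5 ± 0.403 in Lat and 17.0 ± 3.0 in M-BM, against 10.7 ± 1.15 in S-BM). PSENEN fell by 0.41 in Lat (limma adjusted p = 0.0128) and was at −0.22 in M-BM (adjusted p = 0.168), and APH1A and NCSTN did not pass.

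RBPJ, the DNA-binding partner of cleaved NOTCH, rose while its coactivator MAML2 fell. It stood at 108, 116, 100 and 117 in Lat, at 92.4, 110, 110 and 107 in M-BM and at 82.2, 73.9, 58.6 and 60 in S-BM, without overlap. RBPJ rose by 0.69 in Lat (limma adjusted p = 0.000157) and by 0.61 in M-BM (limma adjusted p = 0.000554), each against S-BM. The ski-interacting coactivator SNW1 also rose, by 0.44 and 0.43, and CREBBP fell, by 0.34 and 0.47. MAML1, the Mastermind gene at 61.5 ± 1.34 in Lat, 55.7 ± 1.06 in M-BM and 63.7 ± 3.57 in S-BM, was at −0.05 in Lat and was called in M-BM at −0.19 (limma adjusted p = 0.0428). EP300 and KAT2A did not pass. MAML3 was below the filter, at 1.19 ± 0.262 in Lat, 1.66 ± 0.701 in M-BM and 3.45 ± 1.00 in S-BM.

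Of the enzymes that add sugars to NOTCH, POFUT1, the O-fucosyltransferase that prepares the sites on which LFNG acts, rose by 0.99 in Lat and by 0.75 in M-BM, to 151 ± 15 and 128 ± 9.55, against 75.5 ± 5.40 in S-BM. EOGT rose in M-BM by 0.62 (limma adjusted p = 0.00356) and was at 0.13 in Lat (adjusted p = 0.487). Below the filter, MFNG went opposite to LFNG, averaging 2.13 in Lat, 2.02 in M-BM and 0.778 in S-BM. POGLUT1 averaged 5.46, 5.03 and 2.56, and RFNG 8.81, 9.12 and 9.57, in the same order of groups. Among ubiquitin and endocytosis genes 7 of 11 tested fell and 3 rose in Lat, and 5 fell and 2 rose in M-BM, where 29.4% and 25.8% of all tested genes were called lower. Those that fell in both included NUMB, an inhibitor of NOTCH, by 0.72 and 0.56, the ligand-activating ligase MIB1 by 0.72 and 0.34, and DTX3L by 0.84 and 0.83. ITCH and FBXW7, ligases that act on NOTCH proteins, rose by 0.63 and 0.49 in Lat and by 0.58 and 0.60 in M-BM. The corepressor TLE4 passed the filter only through Lat, so its levels are given with no test: 15.3 ± 0.865 in Lat and 9.65 ± 2.48 in M-BM, against 6.59 ± 2.97 in S-BM.

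HES2 was the only further gene listed as a target above the filter. It passed only through S-BM, where it is high, so its levels are given with no test. Whether NOTCH drives HES2 or the other listed targets in these cells was not tested. It stood at 0.976, 1.05, 2.43 and 1.05 in Lat and at 1.18, 1.40, 2.19 and 4.57 in M-BM, against 12.2, 24.1, 31.8 and 28.9 in S-BM and 48.6, 29.7 and 57.8 in Pa. Every Lat and M-BM library lay below every S-BM and Pa library. Genes listed as targets below the filter did not share that course: HES4 averaged 1.85 in Lat, 1.67 in M-BM and 1.76 in S-BM, NRARP 4.97, 5.62 and 4.33, and HES6 4.46, 3.87 and 1.75. HES5 had reads in 1 S-BM library and in no other, and HEY2 stayed under 0.5 on average in each group. NOTCH4 was nearly absent, at 0.302 in Lat, 0.277 in M-BM, 0.394 in S-BM and 0.123 in Pa. The further ligands were all below the filter. DLL3 averaged 1.66 in Lat and 1.72 in M-BM, against 0.221 in S-BM. DLL4 averaged 1.22 and 0.774 against 0.424, and DLK2 4.0 and 3.59 against 3.58.

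**Figure D4:**
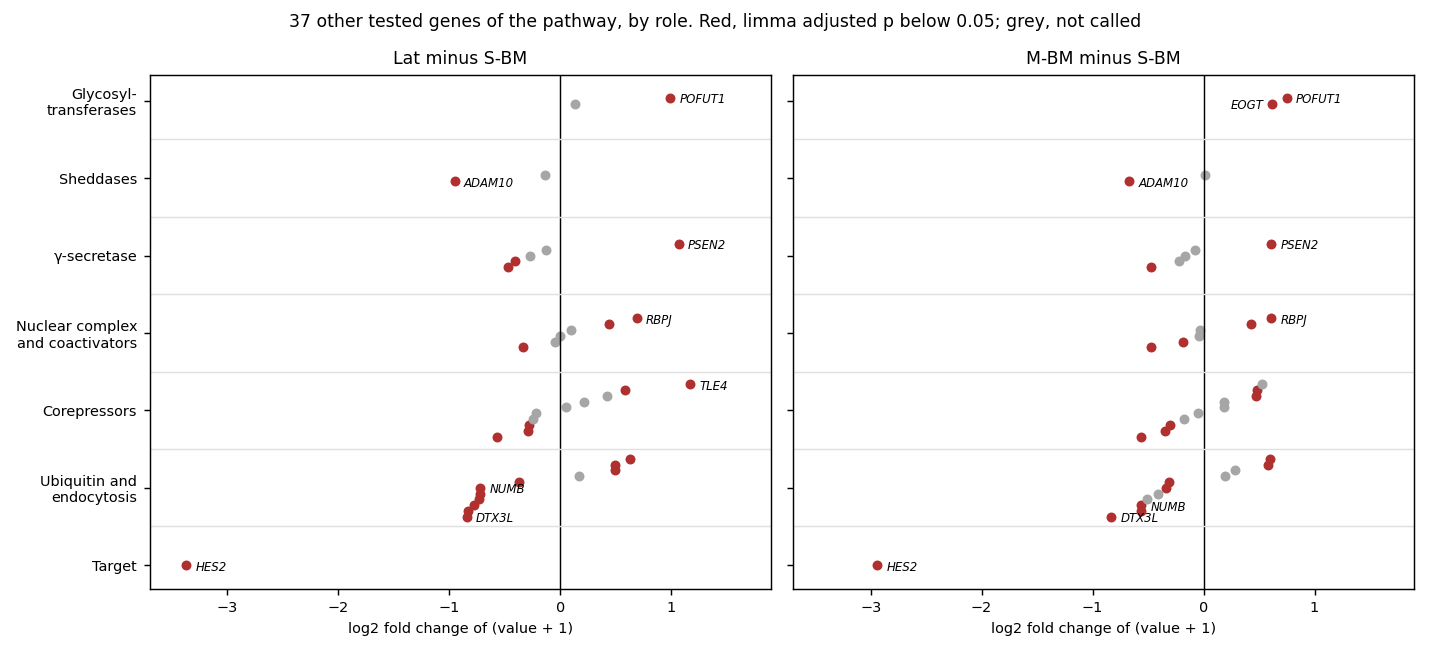
Difference on the log2(value + 1) scale (horizontal axis) of the 37 further tested genes of the pathway, by role (rows), for Lat minus S-BM (left) and M-BM minus S-BM (right); red marks a limma adjusted p below 0.05. Red points lie on both sides of 0, and HES2, farthest to the left, and TLE4 in the left panel reached the filter only through the group where they are high.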

How the data were processed

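Per the labels, libraries were made with TruSeq RNA v2, which does not mark strand, and the submitters' processing notes name Bowtie 0.12.2 and the build GRCh38. For the counter, annotation and normalization, the sources used here give nothing. The authors deposited a signal per gene, named normalized counts; divided by 1 step per library, 100% of values came out whole within 0.05, so reads were recovered (13253870 to 21843860 per library). Lat, M-BM and S-BM share a table of 19845 rows and Pa has its own.

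Lat, M-BM and S-BM were fitted together with limma 3.58.1 (R 4.3.3) on log2(value + 1), with a variance trend, on 9646 genes with a value of at least 10 in at least 4 of 12 libraries. Two-sided p-values were adjusted over all genes by Benjamini-Hochberg, with a threshold of 0.05. DLL1 and HEY1 fell below that filter and were fitted with no filter (19462 genes), chosen once their levels were known. edgeR 4.0.16 and DESeq2 1.42.0 on the recovered reads were alternatives. The fit was tested on simulated data.

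Named genes were all members, whole role groups of the pathway list with up to 3 largest called changes per direction, and the 3 genes most like NOTCH3, HES1 and JAG1; other genes of the ubiquitin group were picked with values seen. The members and lists were chosen with earlier results of these data known. DLK1, DTX1, HEYL, NEURL1 and RITA1 are not analysed here. No upstream window of DLL1 or HEY1 was searched. Some results are not reported here. Same-numbered libraries of different groups correlated in their residuals at −0.272 to 0.319, with 4 of 12 pairs above 0.1, so no pairing was used.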

Additional observations from a re-analysis of the deposited data

Results flagged for a closer look

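Within groups of 4 libraries, 3 member values stood far from the rest of their group, by a gap of at least 0.851 of the group's range. Chance alone gives such a gap in about 1 in 20 groups. All 10 members were searched in each of Lat, M-BM and S-BM, so some such gaps would arise by chance. NOTCH3 reached 115 in S-BM 2, while its 3 companions held 67.0 to 74.1, and without that library its difference between Lat and S-BM was −2.21. LFNG stood at 21.4 in M-BM 2, against 9.80 to 11.4 in the other M-BM libraries, and without it its difference between M-BM and S-BM was −1.29 (limma adjusted p = 0.00372). HEY1 stood at 5.86 in Lat 4, against 3.03 to 3.42 in the other Lat libraries.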

How the results depend on the processing

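Over 25 alternatives (other scalings, pseudocounts, filters, tools, samples in the fit and left-out libraries), the members called numbered 7 to 10 in Lat against S-BM, 6 to 9 in M-BM against S-BM and 0 in M-BM against Lat. DESeq2 called 1 pathway gene, KDM1A, between M-BM and Lat, where limma called 0. Leaving out 1 library at a time gave 7 to 8 and 7 members and 18 to 24 and 18 to 23 pathway genes called in the comparisons of Lat and M-BM with S-BM. Calls that ended were those of NOTCH1 in Lat (without S-BM 3, without S-BM 4, without both, and, chosen after seeing the data, with the closest library pairs averaged, adjusted p = 0.0939) and of LFNG in M-BM without S-BM 3 and S-BM 4; the cause was not tested. The fit with the replicate number as a block (replicate block) called 8, 7 and 0 members and 24, 21 and 0 pathway genes in the 3 comparisons and changed no call of a member. The size of DLL1 and HEY1 depends on the pseudocount: in Lat against S-BM, DLL1 was at 0.57 with a pseudocount of 10 and 2.42 with 0.1, and HEY1 at 0.42 and 3.07, while DESeq2 gave 2.48 and 3.40. Pa as deposited, without scaling, left 20 of 30 pairs of member and group outside its range, as with scaling. HEY1 in S-BM rests on 4 to 9 reads per library, which limits its fold.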
